A study of Mus musculus with 7 samples.

Results

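Follicular keratinocytes, the cells of the hair follicle epithelium, were taken as the cells that the authors' deposited annotation of sorted epidermal keratinocytes places in the cluster named Follicular. They numbered 537 of 5426 keratinocytes and of 18106 cells across all 7 libraries of the series. They came from both keratinocyte libraries, with 278 cells in the library labelled BMT and 259 in the library labelled BMT + T cells. All keratinocytes were sorted as CD45neg cells from the epidermis of male CD45.2 C57BL/6 hosts, 3 weeks after lethal irradiation and a bone marrow transplant from female CD45.1 C57BL/6 donors. In the BMT + T cells library the labels add T cells to the transplant, and the series design names these as CD4 T cells with CD8 Matahari cells, which carry a receptor for a male antigen. The design text describes that T cell transfer for the series as a whole, so that the absence of T cells in the BMT library rests on the sample labels alone. Each library held cells of several pooled mice, whose number per library the labels do not give, and each label has 1 library, titled replicate 1 and replicate 2. Ages of the mice are not given in the sources used here. Neither keratinocyte library came from untransplanted mice, so that irradiation and marrow transfer are shared by both groups. No test between libraries can therefore be made, and intervals given below cover counting error only.

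The hair follicle is a downgrowth of the epidermis in which an upper part, the infundibulum and isthmus, opens onto the skin surface, while the bulge below holds the stem cells that rebuild the follicle. The upper follicle carries the duct of the sebaceous gland and faces the microbes of the skin surface. It is known as a site where monocytes and Langerhans cell precursors enter the epidermis. Follicular cells here were described against the other keratinocyte clusters, named Basal, Differentiated, KC_Four and KC_Five.

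Follicular cells made up 9.80% of the BMT library (278 of 2836 cells, 95% Clopper-Pearson interval 8.73 to 11) and 10.0% of the BMT + T cells library (259 of 2590 cells, 8.87 to 11.2). These shares lay within each other's intervals. Outside KC_Four and KC_Five, whose cells were mostly in the G2M phase, the share in the BMT library was 11.3%. Median depth was 8070 and 7913 UMIs per follicular cell, close to the 8053 and 8224 of Basal cells. The libraries shared 2 cell barcodes, none of them follicular. Levels below are UMIs summed over the cells of a cluster in one library, per 10000 summed UMIs, and differences are on the log2 scale after adding 0.1 to each level.

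All 4 genes given as markers of these cells were higher in the Follicular cluster than in each other cluster of both libraries. Krt79, a keratin of the infundibulum and sebaceous duct, stood at 26.7 UMIs per 10000 (26.1 to 27.3) in the BMT library and 25 (24.3 to 25.6) in the BMT + T cells library, and at no more than 0.0440 elsewhere. Krt17, a keratin of follicles and appendages, stood at 25.4 (24.8 to 26.1) and 27.1 (26.4 to 27.7), against a highest value of 1.88 in KC_Five cells of the BMT library. Epcam, an epithelial adhesion molecule, stood at 4.36 (4.11 to 4.62) and 4.34 (4.07 to 4.62), and here the other clusters were not near 0, with KC_Five at 1.44 and 0.953. Itgb8, the beta subunit of an integrin that activates latent TGF-beta, stood at 0.372 (0.30 to 0.455) and 0.318 (0.249 to 0.401), and at no more than 0.00799 elsewhere. The cluster was made from these same values, so the figures describe it and test nothing.

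The markers were not shared evenly among the follicular cells. At least 1 Krt79 UMI was seen in 36.7% (31.0 to 42.7) of follicular cells of the BMT library and 34.7% (29.0 to 40.9) of those of the BMT + T cells library. In Basal cells, which should lack this keratin and had about the same depth, the shares were 1.84% and 0.759%, and in the other clusters they reached 4.0%, in KC_Four cells of the BMT library at a median of 15889 UMIs. Sox9, a transcription factor of follicle progenitors, was seen in 73.0% and 65.6% of follicular cells and in 1.54% and 1.64% of Basal cells. With each cell thinned to 2500 UMIs, which left out no cell, the follicular shares were 30.6% and 28.6% for Krt79 and 43.2% and 37.1% for Sox9.

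**Figure D1:**
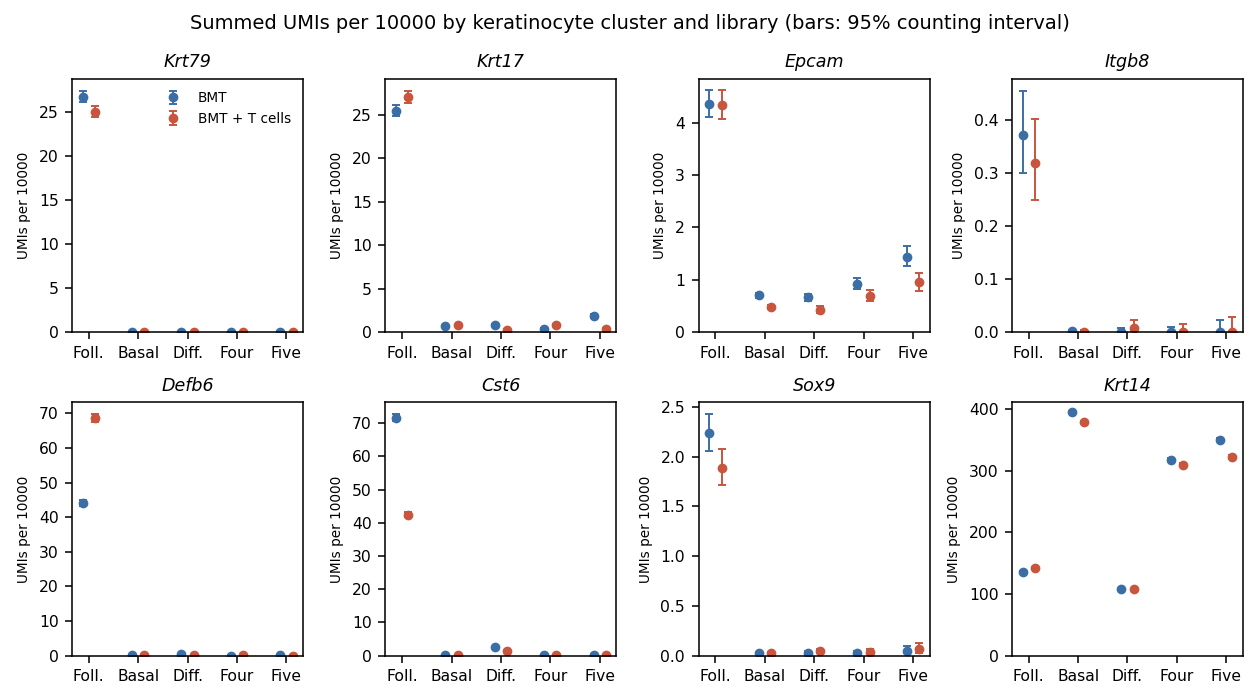
Summed UMIs per 10000 (vertical axis, linear from 0) of 8 genes in the Follicular, Basal, Differentiated, KC_Four and KC_Five clusters of the BMT (blue) and BMT + T cells (red) libraries, with bars for the 95% Poisson counting interval. Krt79 is at 26.7 and 25 in follicular cells and near 0 in the other clusters, Epcam is above 0 in every cluster, and Krt14 is lower in follicular than in Basal cells.

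The 250 bases before the start sites of Krt79 and Defb6, the pair of genes with the largest differences between follicular and other cells, are shown from RefSeq on GRCm38.p6, the build the files use. Capitals mark letters known as binding motifs of factor families, TGTGGT for RUNX in Krt79 and AGATAA for GATA in Defb6, each searched on both strands. Of these families Runx1 and Gata6 were higher in follicular cells, while Gata3 was lower there than in every other cluster of both libraries.
Krt79, chr15:101940325-101940574, minus strand: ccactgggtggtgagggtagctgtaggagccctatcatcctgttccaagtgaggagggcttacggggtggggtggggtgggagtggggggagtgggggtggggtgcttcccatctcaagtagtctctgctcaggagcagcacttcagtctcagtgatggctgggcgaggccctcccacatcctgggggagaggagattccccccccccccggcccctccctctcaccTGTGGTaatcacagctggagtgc
Defb6, chr8:19225228-19225477, plus strand: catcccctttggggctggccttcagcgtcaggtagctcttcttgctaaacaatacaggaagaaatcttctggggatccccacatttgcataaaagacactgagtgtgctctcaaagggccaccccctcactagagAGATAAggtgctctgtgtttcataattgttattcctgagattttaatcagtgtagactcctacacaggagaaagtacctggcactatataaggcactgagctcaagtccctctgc
The TGTGGT of Krt79 begins 23 bases before the start and the AGATAA of Defb6 begins 115 bases before it. Of the 70 genes higher in follicular cells, described next, 50 had such a window. TGTGGT was in the window of 7 of these 50 genes, AGATAA in 3, the SOX letters ACAAAG in 8 and the FOX letters GTAAACA in 1. Of the 6229 tested genes with a window, 12%, 6.57%, 13.5% and 2.65% held the same letters, so the counts were near these shares. Over all 32851 windows the shares were 14.0%, 9.99%, 16.5% and 3.17%.

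In each library 7767 genes were compared, those with a mean of at least 0.1 UMIs per 10000 over the groups compared. Of these, 70 (0.901%) were higher in follicular cells by more than 2 on the log2 scale in both libraries, and 18 (0.232%) were lower. A gene that is near 0 outside the follicle enters only through follicular cells, so these counts describe the cluster. The median of all genes was 0.07 and 0.06. Just inside the limit lay Vim, an intermediate filament of mesenchyme, at 2.36 and 2.01, and Slpi, a protease inhibitor, at 2.25 and 2.02, with Itgb8 at 2.23 and 2.04. Just outside it lay Mgp, an inhibitor of calcification, at 2.12 and 1.99.

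Defense and duct genes led the list. Defb6, a beta-defensin, stood at 44.1 (43.2 to 44.9) UMIs per 10000 in the BMT library and 68.6 (67.6 to 69.7) in the BMT + T cells library, with other clusters pooled at 0.130 and 0.0881, for log2 differences of 7.58 and 8.51. Cst6, an inhibitor of cysteine proteases made in the upper follicle and in cornifying cells, stood at 71.6 (70.6 to 72.7) and 42.5 (41.6 to 43.3), both 6.43 above the other clusters. A single cell held 19.6% and 31.5% of the Cst6 UMIs of its library. Among the 13 antimicrobial genes, 6 were tested and 4 were called higher, namely Defb6, Defb1, Lcn2 and Slpi. Defb1, a constitutive beta-defensin, stood at 4.79 and 5.10 against 0.908 and 0.990. Lcn2, which binds bacterial siderophores, stood at 0.866 and 1.02 against 0.0522 and 0.0723, and Slpi, a protease inhibitor with antimicrobial activity, stood at 0.379 and 0.394 against 0.000791 and 0.0220. None of the list was called lower.

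Of the remaining genes named by the size of their difference, Fst, a secreted inhibitor of activin, stood at 3.33 and 3.66 UMIs per 10000, with differences of 4.64 and 4.84. Calml3, a calmodulin-like protein of epithelia, stood at 2.86 and 2.48, with differences of 3.90 and 4.0. Ccn2, a matricellular growth factor, Gstm5, a glutathione transferase, Abi3bp, a matrix protein, and Sdr16c6, a short-chain dehydrogenase, differed by at least 3.74, 3.41, 3.36 and 3.32 in each library. Mgst1, a microsomal glutathione transferase abundant in sebaceous cells, stood at 10.2 and 6.35, with differences of 3.87 and 3.26. Sprr1a, a cornified envelope precursor, stood at 5.0 and 1.46, with differences of 4.70 and 2.99. Dcn, a proteoglycan of connective tissue, stood at 2.36 and 2.37, but 1 cell held 30.6% of its UMIs in the BMT library and 1 cell 32.3% in the other. With the richest cell of each library left out for every gene, 58 genes were called higher, all of them among the 70.

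**Figure D2:**
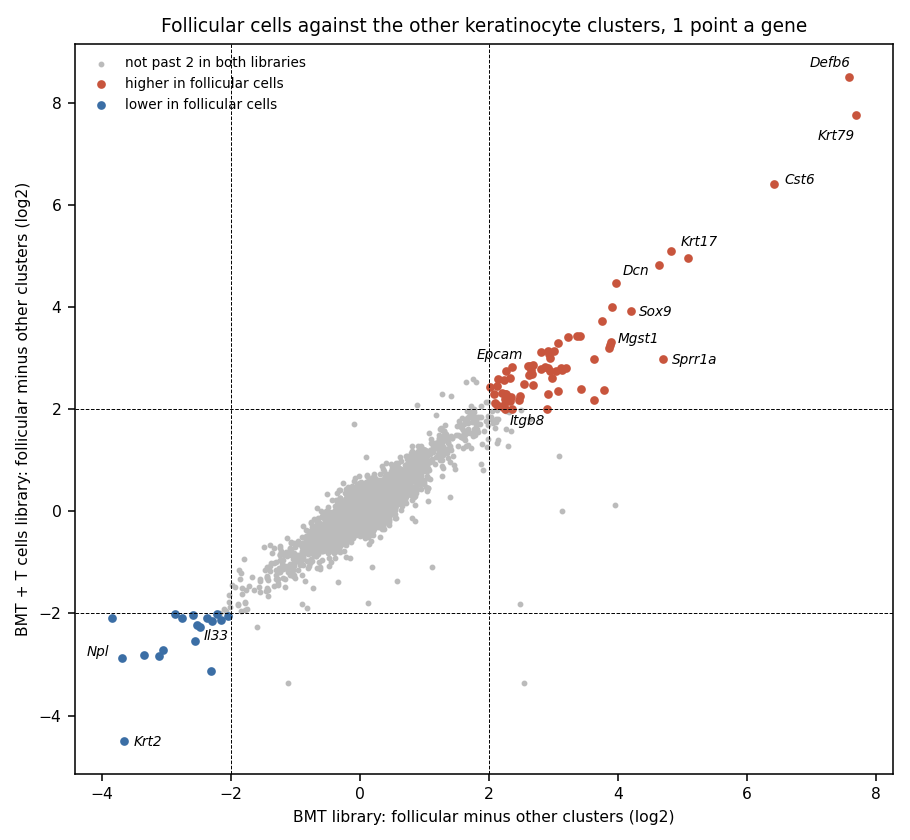
Follicular minus other clusters on the log2 scale in the BMT library (horizontal axis) and in the BMT + T cells library (vertical axis), 1 point for each of 7767 genes, with dashed lines at the limits of 2 and -2. The 70 red genes, led by Defb6 and Krt79, are higher and the 18 blue genes, led by Krt2, are lower in follicular cells of both libraries.

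Genes lower in follicular cells included keratinocyte cytokine and barrier genes. Il33, an alarmin of the interleukin-1 family, stood at 0.265 and 0.442 UMIs per 10000 in follicular cells and at 2.48 and 2.88 in Basal cells, the differences from other clusters pooled being -2.53 and -2.23. Il1r2, a decoy receptor for interleukin-1, differed by -3.06 and -2.72. Krt2, a keratin of late suprabasal cells, stood at 2.32 and 0.991 against 30.5 and 24.4, and 57.3% of its follicular UMIs in the BMT library came from 1 cell. Npl, which breaks down sialic acid, differed by -3.69 and -2.88, and Slc4a8, a bicarbonate transporter, by -3.12 and -2.84. Serpinb7, a protease inhibitor, differed by -3.36 and -2.82. Mmp3, a matrix metalloproteinase, Sema3d, a guidance factor, Tent5a, a poly(A) polymerase, and Igfbp3, which binds insulin-like growth factors, made up the rest of the 10 lowest, at between -3.13 and -2.10 in each library. All 18 genes stayed lower by more than 2 without the richest cells.

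Several transcription factors of the follicle were called higher. Of the 15 genes of this list 12 were tested, and Sox9, Lhx2, Runx1, Foxc1 and Gata6 were called higher, with a median of 1.40 and 1.61 over the tested members. Sox9 stood at 2.23 (2.05 to 2.43) and 1.89 (1.71 to 2.08) UMIs per 10000 against 0.0261 and 0.0300. Foxc1, which keeps bulge stem cells quiescent, stood at 0.767 (0.663 to 0.883) and 0.924 (0.803 to 1.06) against 0.00277 and 0.00441. Gata6, a factor of the sebaceous duct, stood at 0.545 and 0.646, and Runx1, which promotes activation of follicle stem cells, at 0.538 and 0.668, both against at most 0.00705. Lhx2, a bulge factor, stood at 0.447 and 0.553 against 0.0166 and 0.0101. These 5 factors were low in level, and lower still in the other clusters pooled. Lgr6, a receptor of upper follicle and interfollicular stem cells, differed from them, with 0.577 and 0.548 in follicular cells beside 0.523 and 0.531 in Basal cells. Gata3, also of the list, was lowest in follicular cells of both libraries. It differed from Differentiated cells, the highest cluster, by -0.99 and -1.06.

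Among 18 Wnt and hedgehog genes 12 were tested and 2 were called higher, both of them secreted inhibitors. Sostdc1, an inhibitor of BMP and Wnt signals, stood at 10.6 (10.2 to 11) and 12.4 (12 to 12.9) UMIs per 10000 against 1.56 and 2.16. Wif1, which binds Wnt proteins, stood at 0.779 and 0.606, against 0.00119 in the other clusters of the BMT library and no UMI in those of the other library. A single cell held 62.9% and 43.1% of the Wif1 UMIs of follicular cells. Other secreted inhibitors of the list were not called and did not share a direction. Sfrp1 was lowest in follicular cells of both libraries and differed from KC_Five, the highest cluster, by -0.95 and -1.08. Dkk3 was highest in follicular cells and differed from Basal cells, the next cluster, by 0.14 and 0.31. Fzd10, a Wnt receptor, was at 0.237 and 0.248 in follicular cells and at 0.539 and 0.608 in the others. Of 17 TGF-beta and BMP genes 12 were tested, and Itgb8 alone was called. Itgb6, the beta subunit of another integrin that activates TGF-beta, was low in every cluster, at 0.0237 and 0.0354 in follicular cells. The ligands Tgfb1 (0.253 and 0.376) and Tgfb2 (0.158 and 0.186) and the receptor gene Tgfbr2 (0.340 and 0.469) were not called. Of 11 epithelial adhesion genes 9 were tested, and only Epcam was called. The tight junction gene Cldn1 stood at 1.59 and 1.46 against 0.429 and 0.373.

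Genes for ligands and secreted factors that can act on monocytes and Langerhans cells split between the follicle and the interfollicular clusters. Jag1, a Notch ligand, stood at 1.43 (1.29 to 1.59) and 1.68 (1.51 to 1.85) UMIs per 10000 in follicular cells, with Basal cells next at 0.821 and 0.857. Jag2, the other ligand of that family, stood at 0.858 (0.747 to 0.980) and 0.982 (0.857 to 1.12), below Basal cells at 1.36 and 1.61 and within the range of KC_Four and KC_Five at 0.760 to 1.18. The order of the clusters thus differed between the 2 ligands, and no gene of the 17 in the Notch list was called in either direction, 9 of them being tested. The receptor Notch1 stood at 0.530 and 0.495, beside 0.438 and 0.503 in Basal cells. Hes1, a target of Notch signals, stood at 0.715 and 0.708, below Differentiated cells at 0.773 and 0.818 and above Basal cells at 0.432 and 0.420.

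Apoe, the lipid carrier apolipoprotein E, stood at 14.8 (14.3 to 15.2) and 16.1 (15.6 to 16.6) UMIs per 10000 and was highest in follicular cells, with Basal cells next at 9.45 and 10.1. Ptn, a heparin-binding growth factor, stood at 5.78 and 6.60, above Basal cells at 3.41 and 3.16 but not above KC_Four at 6.70 and 7.56. Il34, a ligand of the CSF1 receptor that maintains Langerhans cells, stood at 0.664 (0.567 to 0.772) and 0.615 (0.517 to 0.726). Its highest level was in Differentiated cells, at 1.89 and 2.12, with Basal cells next and follicular cells at the level of KC_Five (0.647 and 0.531). Csf1, the other ligand of that receptor, stood at 0.126 and 0.168. Ccl2, a monocyte chemokine, had no UMI in follicular cells of the BMT library, and 3 UMIs would be 0.0119 per 10000 there. In the other library it stood at 0.00884.

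**Figure D3:**
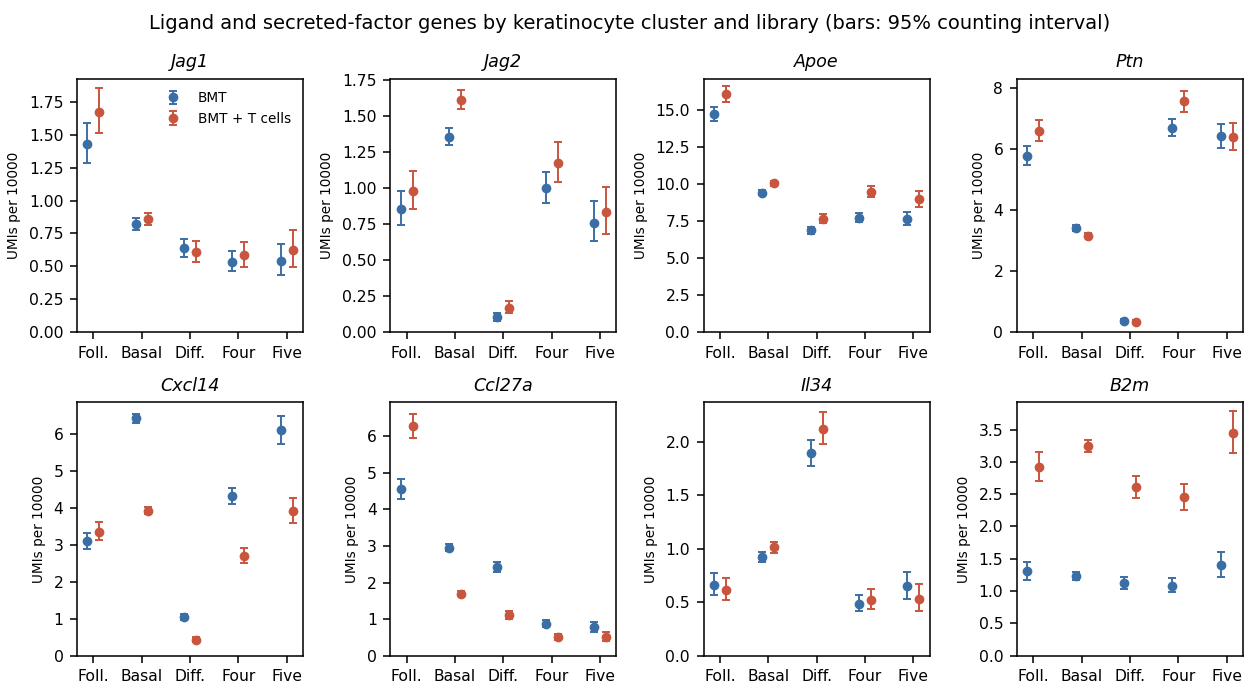
Summed UMIs per 10000 (vertical axis, linear from 0) of 8 genes for ligands, secreted factors and B2m in the 5 keratinocyte clusters of the BMT (blue) and BMT + T cells (red) libraries, with bars for the 95% Poisson counting interval. Jag1, Apoe and Ccl27a are highest in follicular cells, Jag2 in Basal and Il34 in Differentiated cells, and Ccl27a lies higher in the BMT + T cells library in follicular cells and lower in the other clusters.

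Chemokine genes of resting epidermis were also unequal. Ccl27a, which draws skin-homing T cells, stood at 4.55 (4.29 to 4.82) UMIs per 10000 in the BMT library and 6.29 (5.97 to 6.62) in the BMT + T cells library, and was highest in follicular cells in both. Cxcl14, a chemokine made by resting epithelia, stood at 3.10 and 3.36, against 6.42 and 3.93 in Basal cells. Cxcl16, a transmembrane chemokine, stood at 0.715 and 0.889 and was highest in follicular cells. Of 15 chemokine genes 5 were tested, and none was called between follicular and other cells.

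Genes that tie basal cells to the basement membrane were lower in follicular cells than in the other clusters pooled, without passing the limit. Their summed level was 14.6 and 17.2 UMIs per 10000, between Differentiated cells (11.6 and 13.7) and Basal cells (28.8 and 30.9). All 12 hemidesmosome and basement membrane genes were tested, none was called, and 11 lay below 0 in both libraries, with medians of -0.64 and -0.54. Of all 7767 tested genes, 2069 lay below 0 in both libraries and 3794 above it. Col17a1, a transmembrane collagen of hemidesmosomes, stood at 4.33 and 5.12 UMIs per 10000 against 10.5 and 11.6 in Basal cells. Itga6, the alpha subunit of the hemidesmosome integrin, stood at 1.37 and 1.5 against 3.40 and 3.69. The 7 basal markers, Krt14 and Krt5 included, lay below 0 in both libraries, with Krt14 at 135 and 142 in follicular cells against 396 and 379 in Basal cells. Of 13 desmosome genes 10 were tested, none was called, and 7 lay below 0 in both. Among all 47 keratin genes 15 were tested, Krt79, Krt17 and Krt7 being called higher and Krt2 lower. Krt15, a bulge keratin that neonatal and tail epidermis also makes, stood at 41.3 and 50.7, beside 45.1 and 48.5 in Basal cells.

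Clustering of the 537 follicular cells alone gave 8 subclusters of 8 to 132 cells. The genes of the fixed interferon, MHC and cell cycle lists were left out of it, as were Xist and Y-linked genes. The cell cycle list holds only 6 genes. The subclusters are named by the leading 2 genes against the remaining follicular cells and, where at least 3 markers of a cell type were among the leading 10, by that type. Each was found in both libraries, and the intervals of its shares in the libraries overlapped. Other settings of the clustering gave 6 to 11 subclusters, and values below are sums over both libraries.

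Krt79 and Defb6 were highest in a pair of subclusters, and other markers of the upper follicle were not highest in both. The Sprr1a and Cst6 subcluster, with 26 and 25 cells in the BMT and BMT + T cells libraries, held Krt79 at 152 UMIs per 10000, Krt17 at 160, Defb6 at 337 and Cst6 at 563, with Epcam at 12 and Gata6 at 2.43. Its leading 10 genes also included Krt16, a keratin of stressed epithelium seen in 17.6% of its cells, and Klk7, a protease of the cornified layer seen in 49.0%, and 94.1% of its cells were in G1. The Krt1 and Krt10 subcluster, with 46 and 39 cells, was differentiated-like, since Krt1, Krt10 and Mt4 were among its leading 10. It held these suprabasal keratins at 44.2 and 60.4, together with Krt79 at 51.8 and Defb6 at 112, but Itgb8 at 0.224 was the lowest of the 8, Krt17 stood at 11 and Epcam at 4.06. Jag2 was at 0.0527 there and at 0.128 in the Sprr1a and Cst6 subcluster. In the remaining 6 subclusters Jag2 lay between 0 and 1.60, with the 0 in the smallest of them.

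Subclusters with basal keratins differed in their ligand genes. The largest, led by Ccer2 and Cck, held 67 and 65 cells, with Krt14 at 246 UMIs per 10000, Krt5 at 127 and Cxcl14 at 6.53. Both leading genes were seen in 1.5% and 0.8% of its cells, so that they came from 1 or 2 cells, and Postn, a matricellular protein of the bulge seen in 75.8% of cells, described it better. The Serpina3g and Cryab subcluster, with 38 and 43 cells, had the highest Itgb8 (0.724), Lrig1 (1.59), Ccl27a (12.6), Krt15 (122) and Apoe (31.4) of all. Lrig1 restrains growth factor receptors and marks stem cells of the upper follicle. Cxcl14 there was 0.345, so that the subclusters highest for Ccl27a and for Cxcl14 were not the same. These ranks are over both libraries together, and those of Itgb8 and Apoe did not hold in each. Itgb8 stood at 0.656 in the BMT + T cells library, below the Cytl1 and Wif1 subcluster at 0.735. Apoe stood at 31.3 in the BMT library, below the subcluster of 8 cells at 31.5.

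The Cytl1 and Wif1 subcluster, with 40 and 41 cells, stood apart from the rest. It had the highest Wif1 (7.81 UMIs per 10000), Lgr5 (1.74), Lhx2 (3.63), Tbx1 (3.31), Sox9 (4.11), Jag1 (3.21), Ptn (14.7) and Cxcl14 (7.25) of all, and the lowest Krt79 (0.0483). Wif1 was seen in 46.9% of its cells and Cytl1 in 11.1%. Lgr5, Lhx2, Tbx1 and Sox9 are markers of the bulge and lower follicle. Its leading genes were others, with Vim, Sparc, Col1a2 and Col3a1 of connective tissue and Pmel of pigment cells among the first 10, so no cell type name was given. At least 3 UMIs of the 6 fibroblast markers were seen in 21 of its 81 cells, and at least 3 UMIs of the 4 melanocyte markers in 3. Its median depth was 4554 UMIs, the lowest of the 8. Its Cxcl14 was the highest in the BMT library, at 9.30, but not in the BMT + T cells library. There it stood at 5.15, below the Ccer2 and Cck subcluster at 6.94 and the Cenpf and Birc5 subcluster at 6.81.

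Smaller subclusters held genes of the gland or of the cell cycle. The Lcn2 and Chil1 subcluster, with 21 and 20 cells, held Lcn2 at 8.20 UMIs per 10000, Mgst1 at 28.2 and Pparg, the master regulator of lipid synthesis in sebocytes, at 2.01. Pparg was the only sebaceous marker among its leading 10 genes, so no cell type name was given. A subcluster of 8 cells, 6 from the BMT and 2 from the BMT + T cells library, was sebaceous-like, since Cidea, Elovl6, Soat1 and Scd1, genes of lipid droplets and lipid synthesis, were among its leading 10. It had no Krt17 UMI. The Cenpf and Birc5 subcluster, with 34 and 24 cells, was cycling-like, with 86.2% of its cells in G2M and Ptn at 11.4. Cell cycle genes outside the fixed list of 6, such as Cenpf, had not been left out of the clustering.

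**Figure D4:**
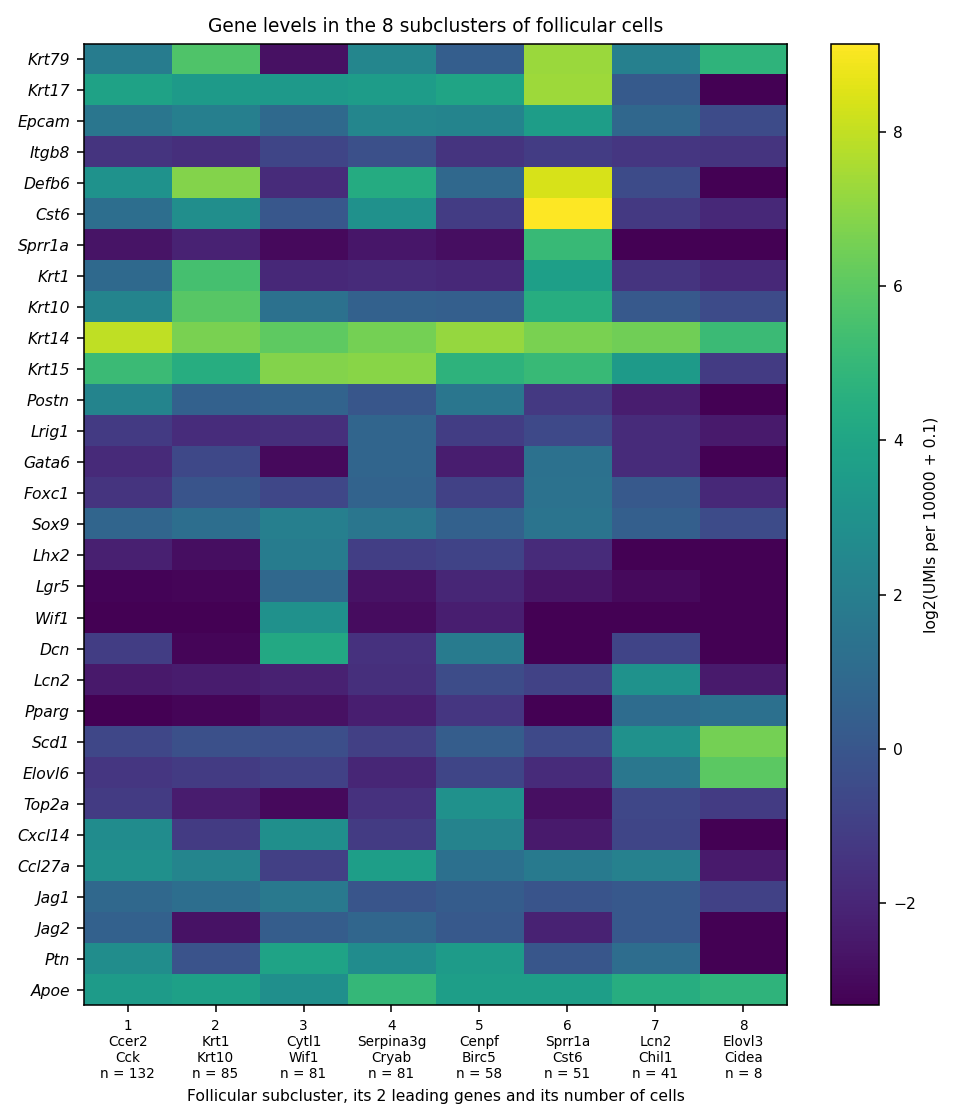
Level of 31 genes, as log2 of summed UMIs per 10000 plus 0.1 (colour), in the 8 subclusters of follicular cells (columns, with their leading genes and number of cells). Krt79, Defb6 and Cst6 are brightest in subcluster 6, led by Sprr1a and Cst6, Wif1, Lgr5 and Dcn in subcluster 3, led by Cytl1 and Wif1, and Scd1 and Elovl6 in subcluster 8, of 8 cells.

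Markers of other cell types were near 0 in follicular cells, apart from the connective tissue and pigment genes above. The 7 immune markers summed to 0.0237 and 0.0354 UMIs per 10000, and Ptprc, which encodes CD45, was seen in 0 of 278 and 0 of 259 cells. The 6 fibroblast markers summed to 3.05 and 3.27, against at most 0.446 in any other cluster, and the 4 melanocyte markers to 0.877 and 1.23, against at most 0.0674. The Merkel cell markers summed to 0.138 and 0.0265, against at most 0.00781 in any other cluster. In the Ccer2 and Cck subcluster they had 27 UMIs, with at least 3 in 1 of its 132 cells. The part of such cells in the values of the Follicular cluster was not tested.

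Within follicular cells, MHC and interferon-induced genes were higher in the library labelled BMT + T cells. Of 7931 genes compared between the libraries, 23 (0.29%) were higher by more than 1 on the log2 scale and 18 (0.227%) were lower, the median of all genes being -0.01. Of the same 7931 genes, 3800 lay above 0, and the counts of list members above 0 given below stand beside this. The filter took the mean of both libraries in follicular cells, so a gene low in 1 library could enter through the other. List medians given below for other clusters are over the genes tested in follicular cells. In the other clusters pooled, 32 of 7461 genes (0.429%) were higher and 5 (0.067%) lower. With 1 library a label, the label, the mice and the preparation cannot be told apart.

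Class I genes of antigen presentation were higher in follicular cells of the BMT + T cells library. B2m, the light chain of class I molecules, stood at 1.30 (1.17 to 1.45) UMIs per 10000 in the BMT and 2.93 (2.71 to 3.16) in the BMT + T cells library, a difference of 1.11, with 1.29 in the other clusters pooled. H2-K1, a classical class I heavy chain, stood at 7.62 (7.28 to 7.97) and 16.4 (15.9 to 17.0), a difference of 1.10, with 0.93 in the other clusters pooled. H2-Q7, a nonclassical class I gene with close paralogs that can share its reads, stood at 0.198 and 1.15, a difference of 2.07 against 1.91. All 16 genes of the class I list were tested, 15 lay above 0 and 5 were called higher, with a median of 0.79 beside 0.85 in Basal and 0.74 in Differentiated cells. Psmb8, a subunit of the immunoproteasome, stood at 0.379 and 1.04.

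Of the class II genes, Cd74 and H2-Ab1 were called higher, and Cd74 rested on 1 cell. Cd74, the invariant chain, stood at 0.217 (0.164 to 0.283) UMIs per 10000 in the BMT and 0.721 (0.614 to 0.840) in the BMT + T cells library, against 0.306 and 2.24 in Basal cells. A single cell held 61.3% of the Cd74 UMIs of follicular cells in the BMT + T cells library, and Cd74 was not called without the richest cell of each library. A Cd74 UMI was seen in 5.40% (3.05 to 8.74) and 6.95% (4.17 to 10.8) of follicular cells, against 5.52% and 19.3% of Basal cells, and after thinning in 2.88% and 4.63% against 3.09% and 12.9%. The shares in follicular cells thus lay within each other's intervals. H2-Ab1, a chain of the class II molecule, stood at 0.0593 and 0.327 in follicular cells and at 0.0916 and 0.791 in Basal cells. Its difference of 1.42 lay above that of KC_Four (1.29) and below those of the remaining clusters. Of the 7 class II genes 3 were tested in follicular cells, with a median of 1.37, beside 2.22 in Basal, 1.80 in Differentiated, 1.46 in KC_Four and 2.04 in KC_Five cells. The median in follicular cells is the value of Cd74 itself, with H2-Eb1 at 0.44 below it and H2-Ab1 above it. The difference between clusters was not tested, since each holds 1 library a label.

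The 33 interferon-gamma genes gave a median difference of 0.46 in follicular cells over 17 tested members, all of which lay above 0 and 5 of which were called higher. Of these 5, Psmb8 and H2-Ab1 were still called without the richest cell of each library, and Cd74, Cxcl9 and Gbp7 were not. The list gave 0.87 in Basal, 0.66 in Differentiated, 0.81 in KC_Four and 0.73 in KC_Five cells. Of 18 type I interferon genes 10 were tested, all lay above 0 and 2 were called, with a median of 0.52 beside 1.06 in Basal cells. Ifi27l2a, an interferon-induced mitochondrial protein, stood at 3.11 and 8.51 UMIs per 10000, a difference of 1.42. Rtp4, an interferon-induced chaperone of receptors, stood at 0.0672 and 0.416, a difference of 1.62. With the subclusters set to equal shares in both libraries, the median of the interferon-gamma list was 0.41.

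**Figure D5:**
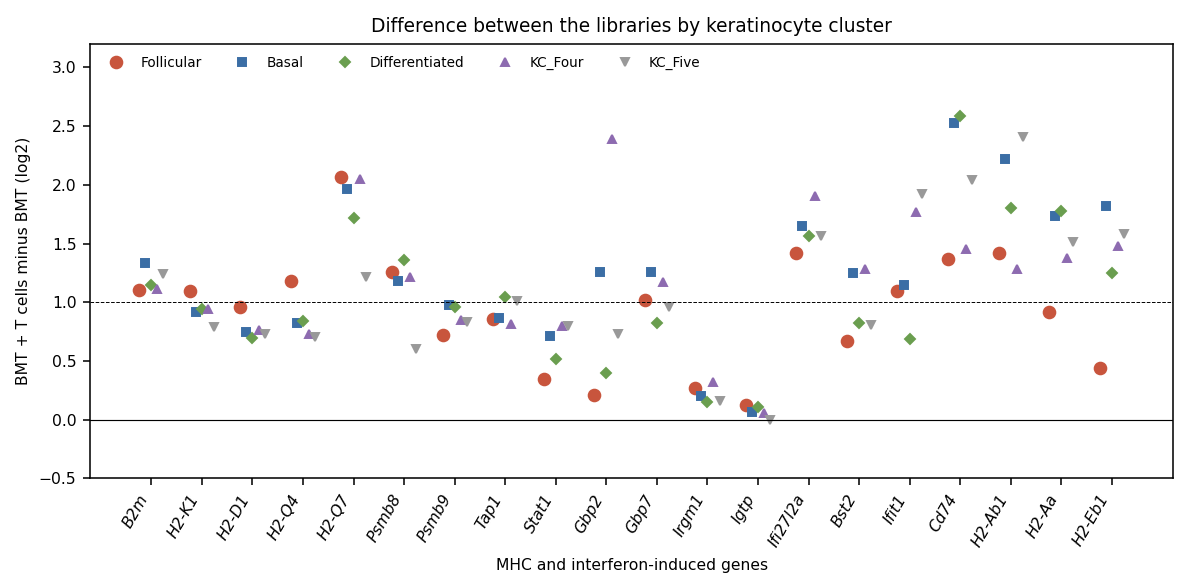
Difference between the BMT + T cells and BMT libraries on the log2 scale (vertical axis) for 20 MHC and interferon-induced genes in follicular cells (large red circles) and in the other 4 keratinocyte clusters (small symbols), with a dashed line at 1. Follicular cells are at 1.11 for B2m and 1.10 for H2-K1, and lie below the other clusters for Cd74 (1.37), H2-Aa (0.92) and H2-Eb1 (0.44).

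The 250 bases before the start sites of 4 of the genes called higher in the BMT + T cells library are shown because they hold the letters GAAA, any 2 bases and GAAA, the core of the interferon-stimulated response element. Capitals mark these letters, searched on both strands, together with TTCNNNGAA, the core of the gamma-activated site, and the SOX letters in B2m, and neighbouring matches can overlap.
B2m, chr2:122147437-122147686, plus strand: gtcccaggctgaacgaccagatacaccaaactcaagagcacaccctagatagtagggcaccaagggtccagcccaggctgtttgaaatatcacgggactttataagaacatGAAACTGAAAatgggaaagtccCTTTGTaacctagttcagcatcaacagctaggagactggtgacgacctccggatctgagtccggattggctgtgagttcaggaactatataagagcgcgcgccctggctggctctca
Gbp7, chr3:142530086-142530335, plus strand: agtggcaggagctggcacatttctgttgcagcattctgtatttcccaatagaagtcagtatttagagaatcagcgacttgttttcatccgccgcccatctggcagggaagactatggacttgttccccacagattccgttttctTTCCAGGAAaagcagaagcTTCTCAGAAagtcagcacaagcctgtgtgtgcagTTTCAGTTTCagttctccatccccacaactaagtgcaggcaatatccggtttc
Ddx60, chr8:61927837-61928086, plus strand: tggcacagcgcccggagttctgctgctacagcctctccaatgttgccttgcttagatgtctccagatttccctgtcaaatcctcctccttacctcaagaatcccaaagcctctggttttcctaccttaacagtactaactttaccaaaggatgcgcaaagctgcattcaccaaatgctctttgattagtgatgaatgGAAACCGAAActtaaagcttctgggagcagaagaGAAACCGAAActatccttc
Ifit1, chr19:34640639-34640888, plus strand: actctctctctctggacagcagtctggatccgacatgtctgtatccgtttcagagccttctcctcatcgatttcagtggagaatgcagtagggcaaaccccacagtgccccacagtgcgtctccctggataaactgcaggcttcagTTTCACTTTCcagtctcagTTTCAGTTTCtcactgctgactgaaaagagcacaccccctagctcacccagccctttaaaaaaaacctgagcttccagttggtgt
The response element letters begin 139 bases before the start of B2m, 53 before that of Gbp7, 53 and 19 before that of Ddx60 and 104 and 85 before that of Ifit1. Those of Gbp7 and Ifit1 are on the opposite strand. Of the 23 genes higher in follicular cells of the BMT + T cells library 18 had a window, and 5 of these held the response element letters. The letters were in 2.87% of the 6229 genes with a window that were tested between clusters, and in 2.98% of all 32851 windows. The share over the genes tested between libraries is not given here. Of these 5 genes B2m and Ifit1 were called without the richest cells, and Gbp7, Ddx60 and Apol9a were not. The letters TTCNNNGAA were in 2 of the 18, against 6.66% and 7.02%. In follicular cells Gbp7, an interferon-induced GTPase, stood at 0.111 and 0.327 UMIs per 10000, Ddx60, an antiviral helicase, at 0.0277 and 0.177, and Ifit1, which binds viral RNA, at 0.0672 and 0.256.

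Several of the largest differences between the libraries rested wholly or partly on 1 cell. AW112010, an interferon-induced transcript, had 97 UMIs in the BMT + T cells library, all in 1 cell, and none in the BMT library. Cxcl9, a chemokine for T cells, stood at 0.174 and 0.623 UMIs per 10000, with 91.5% of the UMIs of the BMT + T cells library in 1 cell, and its difference of 1.40 became -0.28 without the richest cell of each library. Ccl1 and Ccl8, both chemokines, had 54.2% and 53.2% of their UMIs in that library in 1 cell. Their differences of 1.96 and 1.55 were 1.27 and 1.15 without the richest cells, and neither then passed the filter. Iigp1, an interferon-induced GTPase, had 44.7%, and H2-Ab1 31.1%. Their differences of 1.44 and 1.42 were 1.28 and 1.19 without the richest cells. Atf3, a stress-induced transcription factor, stood at 0.123 and 0.562, a difference of 1.57 that was 1.52 without the richest cells. Without the richest cell for each gene 13 genes passed the filter and the limit, all among the 23, and they included B2m, H2-K1, H2-Q4, H2-Q7, Psmb8, H2-Ab1, Ifi27l2a, Ifit1, Rtp4 and Iigp1.

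Among the genes lower in the BMT + T cells library were several of the Sprr1a and Cst6 subcluster. Sprr1a stood at 5.0 and 1.46 UMIs per 10000 over all follicular cells, and at 47.5 and 15.3 within that subcluster. Krt16 stood at 4.80 and 0.0929, with 57.2% of the UMIs of the BMT library in 1 cell, and its difference of -4.67 was -3.60 without the richest cells. Asprv1, a protease of the granular layer, had 70.5% of its UMIs in the BMT library in 1 cell and a difference of -2.27, which was -0.91 without the richest cells. Krt6b and Ccer2 had all their UMIs of the BMT library in 1 cell, and their differences of -2.67 and -3.83 were 0 without the richest cells. Cck, a peptide hormone, had 197 UMIs in the BMT library, 98.5% of them in 1 cell, and none in the other. Bglap3, an osteocalcin-related gene, differed by -1.72, or by -1.35 without the richest cells, and Penk, which encodes enkephalin peptides, by -1.53. Akr1c18, a steroid dehydrogenase, differed by -1.42.

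Pyy, the gut hormone peptide YY, differed by -3.08 in follicular cells and by -3.70 in the other clusters. In the BMT library 74.6% of its follicular UMIs came from 1 cell, and the difference was -1.70 without the richest cells. Of the 18 genes called lower 8 were called without the richest cells, among 13 in all. The share of cells in the Sprr1a and Cst6 subcluster was 9.35% (6.20 to 13.4) and 9.65% (6.34 to 13.9), within each other's intervals. At equal shares of all subclusters Sprr1a differed by -1.52 and Krt16 by -4.49.

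Chemokine, stress and growth arrest genes held few calls. Of 15 chemokine genes 7 were tested between libraries, all lay above 0 and Ccl8, Cxcl1 and Cxcl9 were called higher, with a median of 0.87 beside -0.04 in Basal cells. Ccl8, at 0.0277 and 0.274 UMIs per 10000, passed the filter only through the BMT + T cells library. The count above 0 and both medians thus rest partly on genes that entered by being high there. None of Ccl8, Cxcl1 and Cxcl9 was called without the richest cell of each library, and 1 cell held 69.0% of the Cxcl1 UMIs of the BMT + T cells library. Of 12 immediate early genes 10 were tested, Fos and Atf3 being called higher. Fos stood at 0.289 and 0.805 UMIs per 10000, with 0.540 and 1.36 in the other clusters. Of 15 wound and stress genes 8 were tested, with Krt16, Krt6b and Sprr1a called lower, Krt6b through 1 cell, and a median of -0.30 beside 1.52 in Basal cells. Cdkn1a, the cell cycle inhibitor p21, stood at 5.80 and 3.02, and at 20.6 and 6.70 in the Sprr1a and Cst6 subcluster, while none of the 9 tested p53 target genes was called.

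Genes of the role lists on ligands, receptors and transcription factors were with few exceptions not called between the libraries. Between the BMT and the BMT + T cells library Jag1, Jag2, Ptn and Apoe differed by 0.21, 0.18, 0.19 and 0.12, Epcam differed by -0.01, Itgb8 by -0.17 and Il34 by -0.10. Cidea, a lipid droplet protein, was called lower among the sebaceous genes and Cldn4, a tight junction gene, among the adhesion genes, at -1.08 and -1.13. Of the 259 and 98 Cidea UMIs in the BMT and BMT + T cells libraries, 302 in all were in the sebaceous-like subcluster, of which 6 cells came from the first library and 2 from the second. No gene of the Notch, TGF-beta and BMP, survival factor or follicle transcription factor lists was called, over 9, 13, 3 and 12 tested members. Ccl27a was higher by 0.46 (interval of the ratio without the added 0.1, 0.35 to 0.58) in follicular cells and lower in the other clusters, at -0.74, and it was 0.31 at equal shares of the subclusters. Within the Krt1 and Krt10 subcluster it stood at 3.36 and 6.62 UMIs per 10000 and within the Serpina3g and Cryab subcluster at 11.1 and 13.8.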

How the data were processed

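Epidermal keratinocytes of both labels were profiled with a 10x 5′ kit. The authors counted UMIs with kallisto and bustools on GRCm38, normalised with Seurat, removed doublets with DoubletFinder and clustered the cells, and no further doublet step was made. The deposited values are the natural log of 1 + UMIs per 10000 UMIs of a cell. Reversed, all 15311900 values above 0 were whole to within 0.001, and the UMIs were summed per library and cluster. The deposited annotation gave the cluster, phase, percent of mitochondrial UMIs, and module and embedding scores (not used). The authors' limits were 500 genes and 20% mitochondrial UMIs.

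Library totals were 27817737 and 24959785 UMIs. Genes with a mean of at least 0.1 per 10000 were compared after adding 0.1. Cells are not replicates, and with 1 library a label no test was made. Poisson and Clopper-Pearson 95% intervals cover counting error only. Genes were called past 2 (clusters, in both libraries) or 1 (labels) on the log2 scale. Named were the 4 markers, the 15 highest and 10 lowest called genes by cluster among those with at least 1 UMI per 10000, the 10 highest and 10 lowest by label among those with at least 30 UMIs, and members of fixed lists. One gene that this rule names is not reported here. Vim, Slpi and Mgp at the limit, and genes cited for their single-cell share, were chosen after their values were seen. Members and lists were chosen with earlier results of these data known. Follicular cells were clustered with scanpy 1.11.5 and leidenalg 0.10.2 (1000 variable genes, 20 components, 15 neighbours, resolution 0.5). Scripts ran on Python 3.11.15 with pandas 2.3.3, numpy 2.4.6 and scipy 1.17.1, and were tested on simulated data. Promoter windows came from RefSeq (GRCm38.p6).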

Additional observations from a re-analysis of the deposited data

Results flagged for a closer look

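For 13 genes the BMT + T cells library differed from the BMT library in one direction in follicular cells and in the opposite direction in the other clusters pooled, with both counting intervals off 0. All 13 are named genes or members of the fixed lists. The share of all compared genes that did the same is not given here, so the count cannot be set against it. The intervals do not cover single cells rich in a gene. The difference between clusters was not tested, since each label has 1 library, and values are on the log2 scale with follicular cells first.

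Higher in follicular cells of the BMT + T cells library were Ccl27a, a skin chemokine (0.46, others -0.74), Defb6, a beta-defensin (0.64, others -0.29), Npl, of sialic acid breakdown (0.46, others -0.35), Calr, a chaperone of class I assembly (0.18, others -0.10), and Krt17 (0.088, others -0.20). Ccl1, a chemokine, was at 1.96, with 54.2% of its UMIs in that library in 1 cell, and at -0.05 in the others.

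Lower in follicular cells of the BMT + T cells library were the stress keratins Krt16 (-4.67, others 1.23), Krt6a (-0.46, others 1.76) and Krt6b (-2.67, others 1.62) and the envelope gene Sprr1b (-0.86, others 1.06). One cell held 57.2% of the Krt16, all of the Krt6b and 88.6% of the Sprr1b UMIs of follicular cells in the BMT library. Bambi, a decoy receptor for TGF-beta family ligands, was at -0.64 (others 0.11), Mmp3, a metalloproteinase, at -0.71 (others 0.09), and Scd1, a fatty acid desaturase, at -0.50 (others 0.14). Mmp3 had 40 follicular UMIs in the BMT library, 30% of them in 1 cell, and 13 in the BMT + T cells library. Of the 1044 and 653 Scd1 UMIs of follicular cells in the BMT and BMT + T cells libraries, 1083 in all were in the 8 sebaceous-like cells, of which 6 came from the first library and 2 from the second.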

How the results depend on the processing

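The limits of the comparison are the low counts of most follicular genes, single cells rich in 1 gene and 1 library a label. No paired analysis was possible because each label has 1 library. In 1296 recomputed values of 116 results, 966 stayed within the set margins, 329 moved and 1 changed sign, Cxcl9, which went to -0.28 without the richest cell of each library. That alternative and equal shares of the subclusters were chosen after seeing the data. With a limit of 1, and with either library left out, all 58 recomputed values of each setting stayed within the margins. For genes named for passing 2 in both libraries this was fixed in advance, so those values say nothing on stability.

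Outside KC_Four and KC_Five the follicular share was 11.3% in the BMT library. The 70 genes higher in follicular cells were 163 with a pseudocount of 0.01, 11 with 1, 35 with a filter of 0.5 and 246 past a limit of 1, and 82 to 95 when only 1 library was used. The 18 lower genes were 43, 1 and 96 with those pseudocounts and that limit, and 21 to 24 with 1 library. Of genes higher in the BMT + T cells library, 23 as reported, there were 51 and 2 with pseudocounts of 0.01 and 1, 6 with a filter of 0.5, 55 after thinning, 2 past a limit of 2 and 13 without the richest cells. The 18 lower genes were 55, 4, 10, 54 and 6 under the first 5 of these. The interferon-gamma median was 0.22 with a pseudocount of 1, and 0.37 to 0.56 under the other alternatives.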
